A study of Mus musculus with 23 samples.

Results

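The genes described here are 34 genes of the cell cycle and of DNA replication, chosen by symbol from a list of cyclins, cyclin-dependent kinases, their inhibitors, MCM helicase subunits, nucleotide and replication enzymes, mitosis genes and cell cycle transcription factors. All 34 were found among the 24475 genes of the liver expression table, whose values are RPKM (read counts scaled by transcript length and library size). The 23 libraries came from livers of male C57BL/6J mice kept for 4 months on regular chow or on a high fat diet (HFD). Over the following 3 weeks the mice were treated with antibody, dosed at 10 mg/kg. It was either REGN1193, which blocks the glucagon receptor (GCGR), or REGN496, taken here as the isotype control because the study names only these 2 kinds of antibody. The groups were chow with control antibody (5 libraries, numbered 1 to 5), chow with GCGR antibody (6 libraries, 6 to 11), HFD with control antibody (6 libraries, 12 to 17) and HFD with GCGR antibody (6 libraries, 18 to 23). The sample notes tie the experiment to the liver enzymes ALT and AST in mice made obese by diet. Whether each library is its own mouse is not stated, so p-values reflect only how far these samples spread, which may be technical.

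In a dividing cell, D and E cyclins with their kinases inactivate the retinoblastoma protein, which frees E2F factors to switch on the genes of DNA synthesis. The MCM proteins then open the DNA at replication origins, and a later wave of genes, driven in part by FoxM1, builds the mitotic spindle and splits the chromosomes. Adult hepatocytes rarely divide, but they are often polyploid and can re-enter the cycle after injury.

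Most of these genes were low in the liver. RPKM was above 0 in all 23 libraries for 32 of the 34 genes, and in 21 for Bub1 and 22 for Aurkb. The mean over all libraries was above 10 RPKM for Cdk4 and Pcna, between 1 and 10 for 16 genes and below 1 for the other 16, of which 13 were below 0.5. A gene was tested where it reached 0.5 RPKM in at least 5 libraries, which 28 of the 34 did and 11939 genes did in all. The untested genes were Ccnb1, Mki67, Bub1, Plk1, Aurkb and Foxm1, of which only Mki67 reached 0.5 RPKM at all, in 2 libraries. Apart from Mki67, for which no such step was found, their values step by what appears to be a single read. On that reading Bub1 rested on 75 reads over the 23 libraries, Ccnb1 on 146, Aurkb on 148, Plk1 on 174 and Foxm1 on 253.

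The samples carried the liver marks of their label. Alb, which encodes albumin, lay between 26485 and 40885 RPKM and Gcgr, the antibody's target, between 102 and 123. Libraries 20 and 19 had the lowest mean correlation with their own group over all tested genes (0.979 and 0.980, the next 0.984), so some results on the HFD with GCGR antibody are given with and without them. Library 20 was the highest of its 6 in 23 of the 34 genes, library 13 the lowest of the HFD control group in 19, library 4 the highest of the chow control group in 19 and library 11 the highest of the chow GCGR antibody group in 15.

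**Figure D1:**
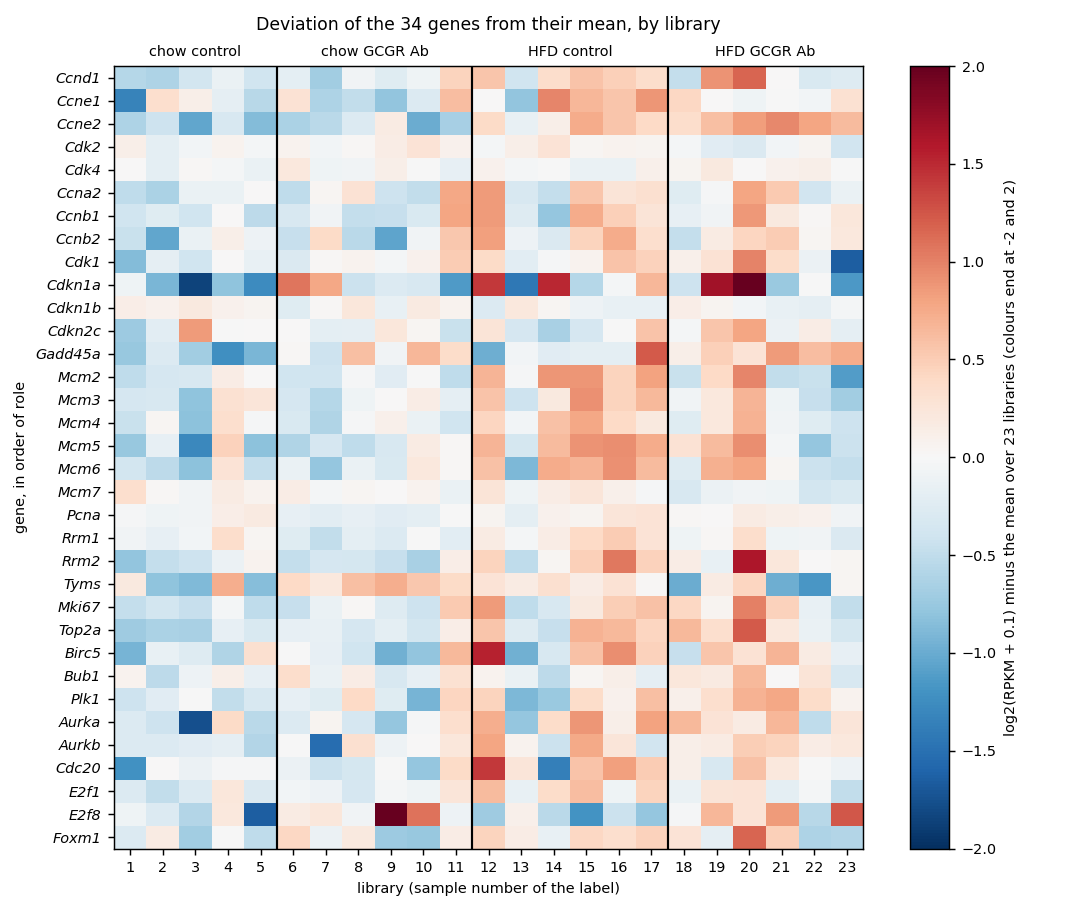
Deviation of each of the 34 genes (vertical axis, in order of role) from its mean over the 23 libraries (horizontal axis, by sample number), as log2(RPKM + 0.1), with colours ending at -2 and 2. Red cells gather in HFD control libraries 12, 15, 16 and 17 and in library 20, library 14 is red for MCM genes and blue for most mitosis genes, and the Cdkn1a cell of library 20 is the strongest of that gene.

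The MCM genes encode subunits of the helicase that unwinds DNA at replication forks. Their upstream sequences are shown because the 6 subunits did not move alike. RefSeq promoters of GRCm38.p6, windows of 300 bases that span the start site, were matched for 28 of the 34 genes and for 5 of the 6 MCM genes. Capitals mark 3 motifs searched on both strands, which are E2F letters (TTTCCCGC, TTTCGCGC, TTTGCCGC or TTTGGCGC), CCAAT, and cell cycle homology region letters (TTTGAA or TTCGAA). The promoters of Mcm2, Mcm5 and Mcm6, which were called higher on HFD, and of Mcm7, which was not, lie at chr6:88898731-88899030 (minus strand), chr8:75109259-75109558 (plus strand), chr1:128359656-128359955 (minus strand) and chr5:138171834-138172133 (minus strand).
Mcm2: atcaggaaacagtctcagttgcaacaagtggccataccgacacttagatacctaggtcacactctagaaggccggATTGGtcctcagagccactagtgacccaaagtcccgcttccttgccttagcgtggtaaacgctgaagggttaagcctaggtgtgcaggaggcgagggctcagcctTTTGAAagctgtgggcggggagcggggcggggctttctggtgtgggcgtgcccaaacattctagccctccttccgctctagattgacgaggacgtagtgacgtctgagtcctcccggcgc
Mcm5: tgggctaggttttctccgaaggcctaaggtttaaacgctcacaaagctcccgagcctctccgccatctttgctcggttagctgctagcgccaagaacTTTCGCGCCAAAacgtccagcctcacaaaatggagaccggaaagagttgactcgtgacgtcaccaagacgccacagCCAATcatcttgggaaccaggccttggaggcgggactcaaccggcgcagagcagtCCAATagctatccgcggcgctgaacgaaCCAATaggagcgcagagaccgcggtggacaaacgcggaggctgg
Mcm6: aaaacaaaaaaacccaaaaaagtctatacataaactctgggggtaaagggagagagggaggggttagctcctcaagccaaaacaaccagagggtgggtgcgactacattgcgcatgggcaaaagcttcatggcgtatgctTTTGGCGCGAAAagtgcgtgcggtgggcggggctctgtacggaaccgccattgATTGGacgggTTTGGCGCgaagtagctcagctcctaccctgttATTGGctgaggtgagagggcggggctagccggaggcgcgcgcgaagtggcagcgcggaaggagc
Mcm7: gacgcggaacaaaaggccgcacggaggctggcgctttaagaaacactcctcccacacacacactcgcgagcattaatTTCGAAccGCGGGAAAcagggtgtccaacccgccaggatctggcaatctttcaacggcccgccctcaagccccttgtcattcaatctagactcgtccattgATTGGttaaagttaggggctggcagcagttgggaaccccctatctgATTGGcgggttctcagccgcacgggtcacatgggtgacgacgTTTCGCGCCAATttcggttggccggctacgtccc
The E2F letters occurred 0 times in the Mcm2 window, 2 times in that of Mcm5, 3 times in that of Mcm6 and 2 times in that of Mcm7, where 1 match overlaps CCAAT. The 2 matches of Mcm5 overlap each other in a single stretch, read on opposite strands, and so do 2 of the 3 in Mcm6. Mcm7 has a second window, not shown, with 0 E2F matches. Those letters were in 2.26% of 32851 promoters of this length and in 6 of the 28 matched genes (Cdk1, Cdk2, Mcm3, Mcm5, Mcm6 and Mcm7). The percentages here count windows, whereas a gene was counted if any of its windows matched, and the 28 genes had 31 windows. CCAAT was in 37.4% of promoters and in all 5 MCM genes, and the homology region letters in 19.2% and in 2 of the 5. A match describes letters and not a bound site.

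The first comparison set HFD against chow under the control antibody. Of the 6 MCM subunits, Mcm2, Mcm4, Mcm5 and Mcm6 were called higher (limma on log2(RPKM + 1), Benjamini-Hochberg adjusted p under 0.05 over all tested genes, met by 11.6% of all genes in this direction), Mcm3 missed the threshold at an adjusted p of 0.0684, and Mcm7 differed by 0.00 ± 0.07 (log2, SE). In these bulk samples, fewer cells of a type and less RNA per cell cannot be told apart. The summed MCM level was 10.7 ± 1.87 RPKM (SD, n = 5) in chow controls and 14.7 ± 2.68 (SD, n = 6) in HFD controls.

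Mcm2 measured 0.818, 0.938, 0.955, 1.35 and 1.21 RPKM in the 5 chow control libraries and between 1.19 and 2.32 (median 2.10) in HFD controls. HFD control library 13, at 1.19, was the only one of its group inside the chow control range. The fold change was 0.51 ± 0.16 (log2, SE), with an adjusted p of 0.0161 by limma.

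Mcm5 measured 0.437, 0.709, 0.272, 1.15 and 0.415 RPKM in chow controls and from 0.614 to 1.63 (median 1.39) in HFD controls, a fold change of 0.54 ± 0.15 (log2, SE) with an adjusted p of 0.0100 by limma. Library 13 was the only HFD control inside the chow control range. Mcm6 measured 1.15, 1.02, 0.814, 1.86 and 1.06 RPKM in chow controls and from 0.768 to 2.96 (median 2.45) in HFD controls, and its fold change was 0.55 ± 0.18 (log2, SE; adjusted p 0.0275). Mcm4 measured 0.903, 1.31, 0.678, 1.64 and 1.26 RPKM in chow controls and from 1.22 to 2.24 (median 1.73) in HFD controls (fold change 0.34 ± 0.12, adjusted p 0.0391). In all 3 genes library 13 lay lowest of the HFD controls, inside the chow control range or below it.

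The same 6 genes showed no diet call in the same direction under the GCGR antibody. There Mcm2 differed by 0.07 ± 0.15, Mcm3 by 0.07 ± 0.15, Mcm4 by 0.13 ± 0.12, Mcm5 by 0.20 ± 0.14 and Mcm6 by 0.17 ± 0.18 (log2, SE), and their adjusted p ran from 0.310 to 0.739. Mcm7 fell by 0.19 ± 0.07 (adjusted p 0.0354), as did 16.6% of all genes tested. This comparison shares no library with the one in control animals. With all libraries, the difference between the 2 diet effects was not called for any MCM gene (limma adjusted p from 0.512 to 0.718).

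Blocking GCGR on chow left the MCM transcripts without a call (0.394% of all genes were called higher and 0.553% lower), with fold changes from -0.07 (Mcm7) to 0.11 (Mcm6). On HFD, Mcm7 fell by 0.27 ± 0.07 (log2, SE; adjusted p 0.0168 by limma), a call that 2.12% of all genes tested shared. Mcm7 measured from 4.65 to 5.95 RPKM (median 5.43) in HFD controls and from 3.80 to 4.73 (median 4.28) in HFD with GCGR antibody. Only the lowest control library, 13, lay within the range of the treated libraries. The Mcm7 call was lost when only the compared groups were fitted (adjusted p 0.0595). Mcm7 shares its locus with Ap4m1, which differed by -0.01 ± 0.10 in the same comparison and fell by 0.33 ± 0.10 on HFD with GCGR antibody (adjusted p 0.0149), and with 3 microRNA genes, and whether the counting used strand is not stated in the labels or notes.

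The other MCM genes were lower in mean in the HFD GCGR antibody group, but not called. Mcm2 fell short of a call at -0.47 ± 0.15 (log2, SE; adjusted p 0.0530). Its 6 values there were 0.863, 1.63, 2.49, 0.834, 0.859 and 0.507 RPKM in libraries 18 to 23, so library 19 lay inside the HFD control range, library 20 above it and the other 4 below every control. Without libraries 19 and 20, which were left out after seeing the data for their low correlation with the group and which also hold the higher MCM levels, 9 of the 28 tested genes were lower, against 3.95% of all genes tested. These were Mcm2 (-0.73 ± 0.11, adjusted p 1.79e-04), Mcm3, Mcm4, Mcm5, Mcm7, Tyms, Ccnd1, Rrm1 and E2f1. The difference between the antibody's effects on HFD and chow was then called lower for 2 genes (0.494% of all genes), Mcm2 (-0.70 ± 0.15, adjusted p 0.0252) and Tyms (-1.53 ± 0.31, adjusted p 0.0208). With all libraries it was not called (Mcm2 -0.44 ± 0.21, adjusted p 0.512).

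**Figure D2:**
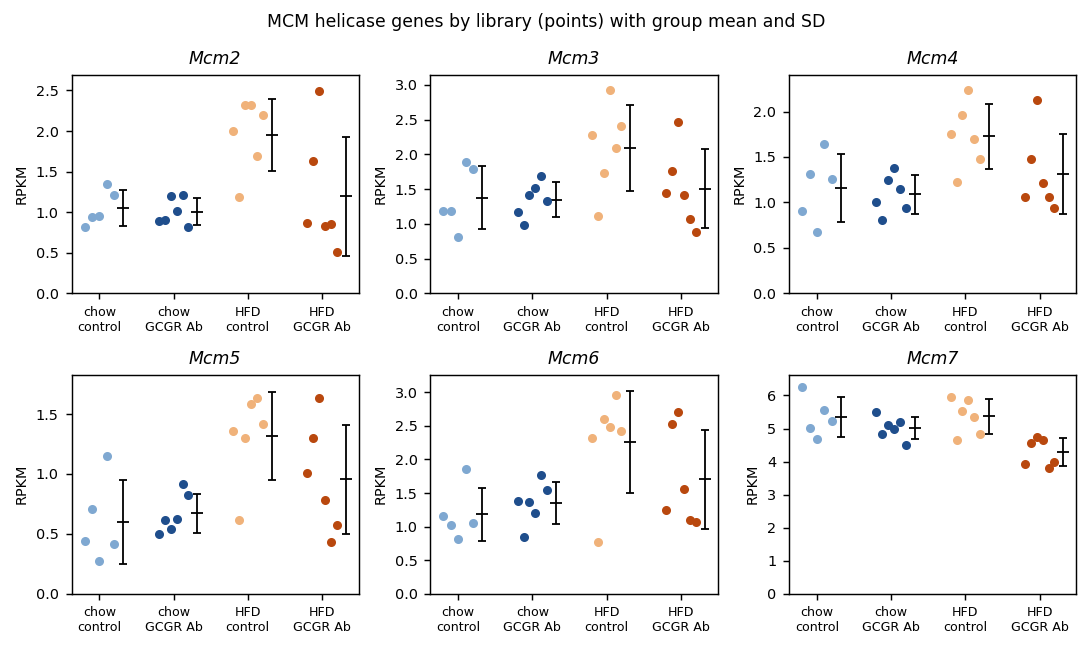
RPKM (vertical axis, linear from 0) of the 6 MCM genes by group (horizontal axis), with each library as a point and the group mean with its SD beside it. HFD control points of Mcm2, Mcm5 and Mcm6 stand above most chow points apart from library 13, and the HFD GCGR antibody points of Mcm2 spread from 0.507 to 2.49.

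Of the G1 cyclins and kinases, cyclin E2 separated the diets. Cyclin E2, encoded by Ccne2 (chr4:11190433-11204779), is a partner of Cdk2 at the entry to S phase. Ccne2 was the only one of the 34 genes whose libraries did not overlap between the diets, and this was so with either antibody. The no-overlap share among the 19057 genes above 0 in any library was 3.61% (higher, control antibody) and 3.4% (higher, GCGR antibody). Ccne2 measured 0.161, 0.200, 0.0947, 0.220 and 0.119 RPKM in chow controls, from 0.102 to 0.350 (median 0.167) in chow with GCGR antibody, from 0.260 to 0.567 (median 0.425) in HFD controls and from 0.412 to 0.677 (median 0.556) in HFD with GCGR antibody. It was called higher on HFD with control antibody, by 0.29 ± 0.06 (log2, SE; adjusted p 0.00235), and with GCGR antibody, by 0.38 ± 0.06 (adjusted p 1.02e-04).

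Ccne2 passed the 0.5 RPKM minimum only through 6 HFD libraries, so its call was also read without the minimum, where its adjusted p was 0.00140 with control antibody. Its values correspond to about 39 reads over the chow controls and 125 over the HFD controls. The gene overlaps Ints8, which fell on HFD (-0.33 ± 0.07 with control antibody, adjusted p 0.00127), the opposite direction, and the lncRNA A630034I12Rik.

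Cyclin D1, encoded by Ccnd1, activates Cdk4 and Cdk6 in early G1. It measured 3.39, 3.28, 3.90, 4.63 and 3.82 RPKM in chow controls and from 3.82 to 7.59 (median 6.83) in HFD controls, a fold change of 0.63 ± 0.22 (log2, SE; adjusted p 0.0343). The HFD control value of 3.82 was library 13, the only one inside the chow control range. Under the GCGR antibody the spread on HFD was wide, from 3.63 to 11.5 RPKM, with libraries 19 and 20 at 9.56 and 11.5 and the other 4 between 3.63 and 5.10. Cdk2, the partner of E cyclins, fell by 0.21 ± 0.06 on HFD with GCGR antibody (adjusted p 0.0193), from 3.95 to 5.02 RPKM (median 4.37) on chow to 3.14 to 4.27 (median 3.73) on HFD, and the groups overlapped. Without libraries 19 and 20 Cdk2 was not called there (-0.16 ± 0.07, adjusted p 0.0931 by limma). Cdk4 was 16.3 ± 1.09 RPKM (SD, n = 5) in chow controls and was not called in any comparison of groups, with fold changes between 0.04 and 0.09. Ccne1, the other E cyclin gene, was not called higher on HFD with control antibody (0.25 ± 0.11, adjusted p 0.0798).

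E2f1, a transcription factor that activates replication genes, was also called higher on HFD with control antibody (0.33 ± 0.10, adjusted p 0.0186). It measured 1.16, 0.977, 1.16, 1.67 and 1.14 RPKM in chow controls and from 1.27 to 2.26 (median 1.91) in HFD controls, so chow control library 4 reached into the HFD range. Under the GCGR antibody it differed by 0.01 ± 0.10 between diets. E2f8, an E2F family repressor linked to hepatocyte polyploidy, was not called in any comparison. Its values were 1.74, 1.51, 1.2, 2.2 and 0.522 RPKM in chow controls and from 1.71 to 8.81 (median 2.15) in chow with GCGR antibody, where library 9 held the top value. The antibody effect on E2f8 was 0.74 ± 0.28 on chow (adjusted p 0.330) and 0.68 ± 0.27 on HFD (adjusted p 0.121). Foxm1 was too low to test, from 0.0424 to 0.440 RPKM over the 23 libraries.

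Among the nucleotide and replication enzymes, Tyms encodes thymidylate synthase, which makes the thymidine nucleotide of DNA. Tyms measured 7.85, 3.88, 3.67, 11.4 and 3.76 RPKM in chow controls, from 7.96 to 11.4 (median 9.47) in chow with GCGR antibody, from 6.96 to 8.54 (median 8.0) in HFD controls and 3.40, 7.63, 9.19, 3.44, 2.99 and 6.99 in libraries 18 to 23. Over all groups, 6 libraries (2, 3, 5, 18, 21 and 22) lay at 3.88 or below and the other 17 at 6.96 or above, with none between. The diet effect under the GCGR antibody was called lower, -0.78 ± 0.23 (log2, SE; adjusted p 0.0150 by limma). The difference between the antibody effects was -1.22 ± 0.34 and was not called (adjusted p 0.166).

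Pcna, the sliding clamp of DNA polymerase, was called higher on HFD with GCGR antibody (0.20 ± 0.07, adjusted p 0.0265). Its values were from 12.9 to 15.1 RPKM (median 13.3) on chow and from 14.4 to 16.9 (median 15.8) on HFD, and libraries overlapped. Rrm1 and Rrm2, the subunits of ribonucleotide reductase, were not called in any comparison. For Rrm2 the diet effect was 0.46 ± 0.19 with control antibody (adjusted p 0.0766) and 0.47 ± 0.18 with GCGR antibody (adjusted p 0.0595), and library 20 stood alone at 5.42 RPKM.

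The mitosis genes and the S, G2 and M cyclins were the lowest set. Their summed level over 12 genes was 2.88 ± 0.561 RPKM (SD, n = 5) in chow controls, 3.51 ± 1.19 (n = 6) in chow with GCGR antibody, 5.27 ± 2.19 (n = 6) in HFD controls and 4.70 ± 1.31 (n = 6) in HFD with GCGR antibody, with ranges that overlapped. Of the 7 tested genes of the set, Aurka and Top2a were called higher on HFD with control antibody. Aurka, a spindle kinase, measured 0.285, 0.248, 0.0377, 0.511 and 0.222 RPKM in chow controls and from 0.173 to 0.759 (median 0.587) in HFD controls (0.28 ± 0.10, adjusted p 0.0435). Top2a, which untangles DNA, measured 0.166, 0.180, 0.178, 0.290 and 0.254 RPKM in chow controls and from 0.216 to 0.605 (median 0.513) in HFD controls (0.25 ± 0.09, adjusted p 0.0465). Top2a passed the minimum only through 5 HFD libraries, and Aurka through 6 HFD libraries and 1 chow library, so their testing depended on the group where they were high. With no minimum neither was called (adjusted p 0.0599 for Top2a and 0.0613 for Aurka).

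Of the 12 genes of the set, none of the 7 tested was called in either antibody comparison. On chow 0.394% of all genes were called higher and 0.553% lower, and on HFD 5.33% and 2.12%. Mki67, a general marker of cycling cells, measured 0.161, 0.180, 0.163, 0.253 and 0.155 RPKM in chow controls and from 0.156 to 0.554 (median 0.362) in HFD controls. In the chow GCGR antibody group library 11 was highest in 10 of the 12 genes, and in the HFD control group library 12 was highest in 7 and library 14 lowest in 7.

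**Figure D3:**
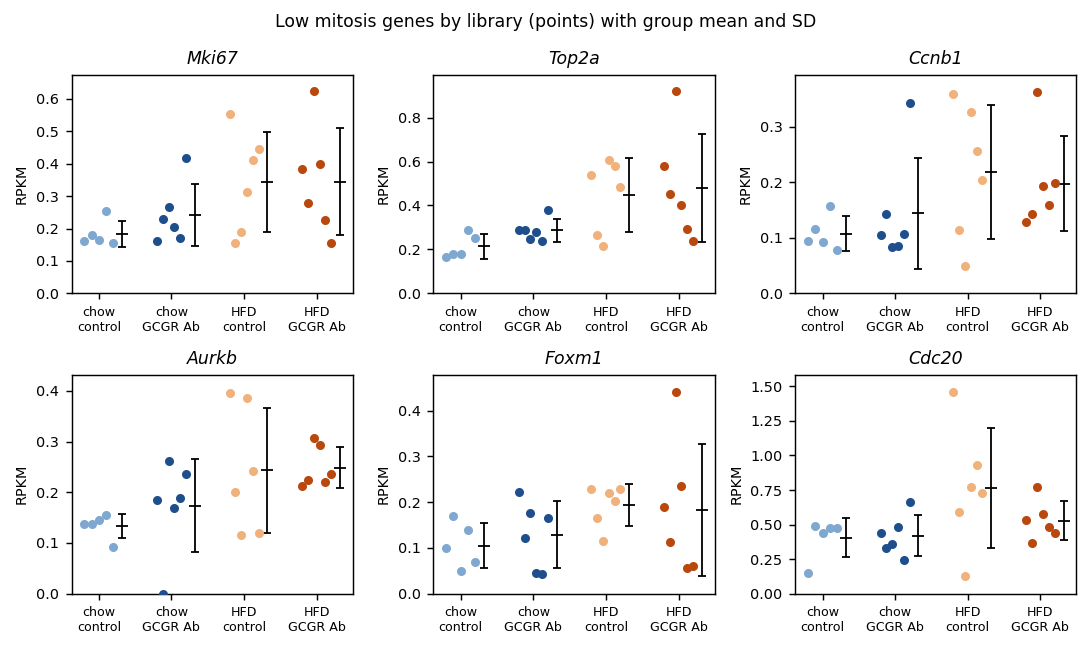
RPKM (vertical axis, linear from 0) of 6 low mitosis genes by group (horizontal axis), with each library as a point and the group mean with its SD. Single libraries set the upper ends: library 20 for Mki67 at 0.625 and for Top2a at 0.920, and library 12 for Cdc20 at 1.46.

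The inhibitors and stress genes gave no call in the reported fit of all libraries. Cdkn1a encodes p21, which binds cyclin-dependent kinases and is induced by p53. Cdkn1a measured 1.90, 1.02, 0.487, 1.11 and 0.787 RPKM in chow controls, from 0.863 to 4.33 (median 1.63) in chow with GCGR antibody, from 0.687 to 5.96 (median 2.61) in HFD controls and 1.49, 6.66, 43.2, 1.17, 2.0 and 0.861 in libraries 18 to 23. Library 20, at 43.2, was far above the next value of 6.66. The group mean was 9.23 ± 16.8 (SD, n = 6), and the diet effect under the GCGR antibody was 0.62 ± 0.55 with it and -0.027 without it. In that library the summed level of 24 p53 target genes was 528 RPKM, against 199 to 305 in the other 22, and it was the highest of its group in 17 of the 24. Library 20 was also the highest in 23 of the 34 genes and had the lowest correlation with its group (0.979). How often it was the highest over all genes was not counted, and the cause of its values was not tested.

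Gadd45a, a stress gene of DNA repair and growth arrest, measured 2.91, 4.12, 3.04, 2.08 and 2.60 RPKM in chow controls and from 3.72 to 7.97 (median 5.75) in chow with GCGR antibody. Only chow control library 2 and treated library 7, at 4.12 and 3.72, made the groups overlap. The antibody effect was 0.79 ± 0.23 on chow (adjusted p 0.121) and 0.49 ± 0.22 on HFD (adjusted p 0.169), and the diet effect with control antibody was 0.58 ± 0.23 (adjusted p 0.0606). The diet effect stayed uncalled in 15 of 18 alternative settings, with a limma adjusted p of up to 0.149. It was called with median-ratio scaling (adjusted p 0.0491) and without library 2 (0.0402) or library 12 (0.0196). The antibody effect stayed uncalled in 17 of 18 settings on chow and in 19 of 20 on HFD. It was called on chow when only the compared groups were fitted (adjusted p 0.0439). On HFD it was called when HFD control library 17, at 11.8 RPKM, was left out (0.72, adjusted p 0.0108). Cdkn1b, which encodes p27, and Cdkn2c, which encodes p18, differed by no more than 0.21 on the log2 scale in any comparison of groups.

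Counted together, 9 of the 28 tested genes were called higher on HFD with control antibody and 0 lower, where 11.6% of all 11939 genes tested were called higher and 18.3% lower. The called genes were Ccne2, Mcm5, Mcm2, E2f1, Mcm6, Ccnd1, Mcm4, Aurka and Top2a. Of the 28, 8 (Aurka, Ccna2, Ccnb2, Ccne1, Ccne2, Cdc20, Cdk1 and Top2a) reached the minimum in under 5 chow libraries and were tested because of HFD libraries, so the count of 9 is not set against 11.6% as support. Only Ccne2, E2f1, Mcm2 and Mcm5 kept the call under each of 18 alternative settings, and with no minimum they were the only 4 of the 34 (6.43% of 19057 genes were called higher there). Leaving out library 3, 5 or 15 also left 4 calls, leaving out 1, 16 or 17 left 5, and leaving out 13 gave 14. The median of the 28 was 0.29, that of all genes tested -0.03. Because the 28 include the same 8 genes, these medians are not set against each other as support either. Without the minimum the median of all 34 was 0.25, and the mean was higher on HFD in 31 of the 34, against 44.3% of genes. Rescaling each library by median ratios moved the share of all calls that were higher from 38.9% to 49%.

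With GCGR antibody, 2 of the 28 were called higher on HFD (Ccne2 and Pcna, where 13.2% of genes were) and 3 lower (Tyms, Cdk2 and Mcm7, where 16.6% were). Both counts are below the share over all genes. The median of the 28 was 0.12, that of all genes tested -0.02, and the mean was higher on HFD in 29 of the 34, against 45.2% of genes. These values used all libraries and were not computed without libraries 19 and 20. Without them the fold changes of Ccnd1, Ccna2, Cdk1, Cdkn1a, Mcm2, Mcm3, Mcm4, Mcm6 and E2f1 turned from positive to negative. Those of Ccne1, Ccne2, Cdk4, Ccnb2, Cdkn2c, Gadd45a, Mcm5, Pcna, Rrm1, Rrm2, Top2a, Birc5, Aurka and Cdc20 stayed positive. Ccne2 and Tyms kept the call under each of 20 settings, and Ccne2 was the only one of the 28 called higher without libraries 19 and 20 (10.6% of all genes). The diet comparison with GCGR antibody and the antibody comparison on HFD share the 6 HFD GCGR antibody libraries, and the antibody comparison on HFD and the diet comparison with control antibody share the 6 HFD control libraries, so the values of a gene in these comparisons are not independent.

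The antibody effect on chow was called for 0 of the 28 genes by limma, where 0.394% of genes were called higher and 0.553% lower, and at an unadjusted p under 0.05 for 5 (3 higher, 2 lower, where 7.02% of all genes were higher and 3.77% lower). On HFD it was called lower for 1, Mcm7, and higher for 0, where 2.12% of genes were called lower and 5.33% higher. At an unadjusted p under 0.05 it was lower in 8 genes and higher in 3, where 7% of all genes were lower and 17% higher. Median-ratio scaling moved the share of all calls that were higher on HFD from 71.5% to 50.9%, and added Cdk2 and Mcm2 to the lower calls. The mean was lower with the antibody on HFD in 22 of the 34 genes, whereas 59.5% of genes had a higher mean. The difference between the antibody's effects in the 2 diets was called for 0 of the 28 genes (0.126% of genes higher, 0.0754% lower), with 3 at an unadjusted p under 0.05, all lower (4.29% of all genes lower, 5.57% higher).

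**Figure D4:**
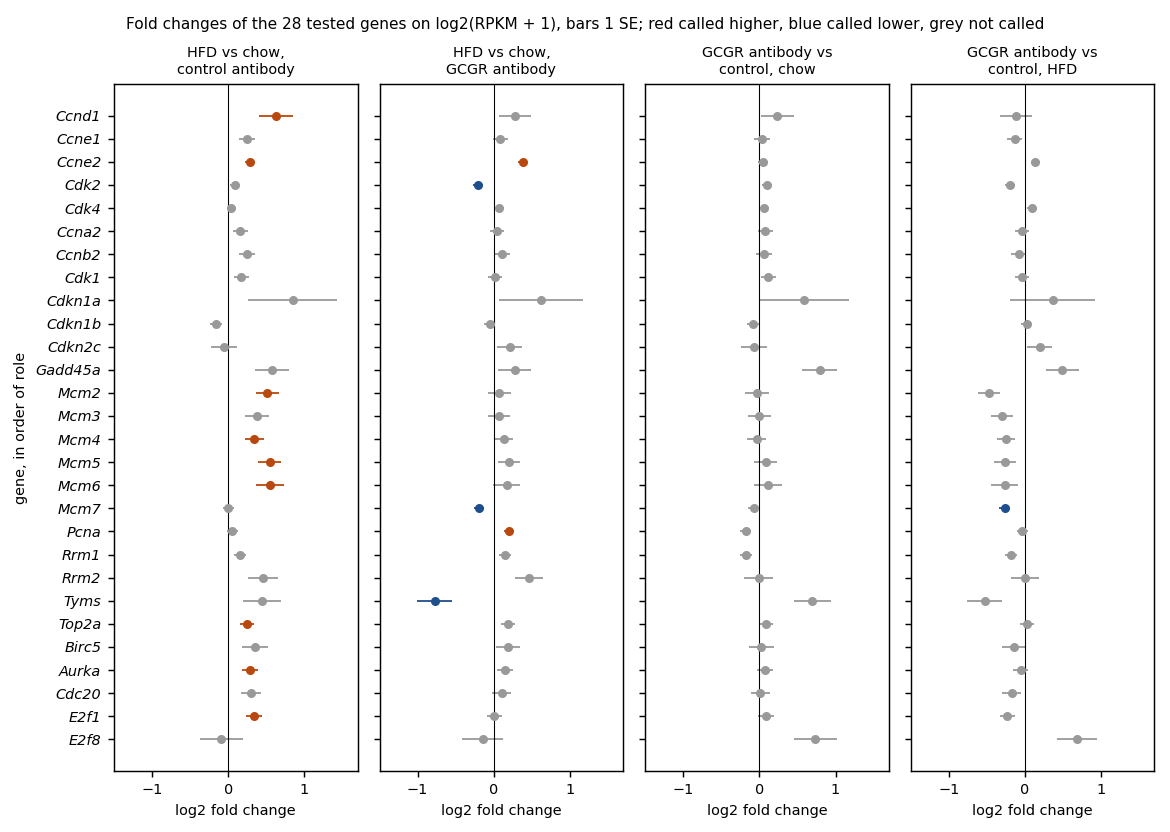
Log2 fold changes on log2(RPKM + 1) (horizontal axes) of the 28 tested genes (vertical axis, in order of role) in the 4 comparisons, with bars of 1 SE, red for called higher, blue for called lower and grey for not called. The diet comparison with control antibody holds 9 red points, and the antibody comparison on chow none of either colour.

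Other genes of the same pathways were read from 3 further lists. On HFD with control antibody, 13 of 42 tested replication genes were called higher and 2 lower. Rfc2, a subunit of the clamp loader, rose by 0.44 ± 0.09 (adjusted p 0.00113). Of 21 tested mitosis genes 9 were called higher and 0 lower, led by the kinetochore genes Spc25 (0.99 ± 0.12, adjusted p 7.62e-06) and Spc24 (0.81 ± 0.13, adjusted p 1.16e-04). Of 29 tested regulators of G1 and of the kinases, 5 were called higher and 1 lower. The lower was Rb1, the retinoblastoma gene (-0.37 ± 0.07, adjusted p 0.00106), and Wee1, an inhibitory kinase of Cdk1, rose by 1.11 ± 0.25 (adjusted p 0.00263). Together these lists gave 27 higher and 3 lower of 92 tested genes, where 11.6% of all genes were called higher and 18.3% lower. With GCGR antibody the diet gave 14 higher and 12 lower of the 92 (13.2% and 16.6% of all genes). The 3 lists hold 143 genes, of which these 92 passed the minimum (21 of 58 in the mitosis list). Whether they passed through chow or HFD libraries was not counted, so these counts are not set against the shares as support.

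With the antibody on HFD the same 92 genes gave 2 higher and 5 lower, where 5.33% of all genes were called higher and 2.12% lower. Ung, which removes uracil from DNA, fell by 0.67 ± 0.12 (adjusted p 9.30e-04) and Nek2, a mitotic kinase, by 0.46 ± 0.09 (adjusted p 0.00202), and for both genes the libraries of the 2 groups did not overlap, as in 0.567% of all genes above 0 in any library. Orc4, an origin recognition subunit, rose by 0.30 ± 0.07 and Cenpm, a centromere gene, by 0.42 ± 0.12. On chow the antibody gave 0 calls among the 92.

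Other values moved with diet in the same libraries. The summed level of 10 erythroid genes was 519 to 1150 RPKM in chow controls, 775 to 2165 in chow with GCGR antibody, 1290 to 2546 in HFD controls and 804 to 1833 in HFD with GCGR antibody. Of the 8 tested erythroid genes, 3 were called higher on HFD with control antibody, where 11.6% of all genes tested were called higher. Hbb-bt, a beta globin gene, rose by 1.13 ± 0.25. With the antibody on HFD, 1 of the 8 was called lower and 0 higher, where 2.12% of all genes were called lower and 5.33% higher. It was Alas2, the first enzyme of heme synthesis in red cells, which fell by 0.73 ± 0.10 (adjusted p 8.31e-05). The fold changes of the 8 ran from -0.73 to 0.29, with a median of -0.20. The part of red cell precursors in the values of replication and mitosis genes was not tested.

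Of the markers of other cells, few were called in the diet comparison with control antibody, where 11.6% of all genes were called higher and 18.3% lower. None in any list was at 0 in all libraries. Of 12 tested macrophage and monocyte genes 1 was called higher, of 6 endothelial genes 1 higher, of 3 T and NK cell genes 1 lower, and of 8 stellate, 3 B and plasma cell, 3 bile duct and 2 neutrophil genes none. In the diet comparison with GCGR antibody, 13.2% of all genes were called higher and 16.6% lower. There 4 of the 8 stellate genes were called higher, and of the 12 macrophage and monocyte genes 3 higher and 4 lower. Of 6 endothelial genes 1 was higher and 1 lower, of 3 T and NK cell genes 1 higher and of 3 bile duct genes 1 lower. The summed macrophage level was 45.4 to 95.1 RPKM in chow controls and 56.1 to 96.0 in HFD controls. The summed stellate level was 75.9 to 81.2 in chow controls and 81.2 to 131 in HFD controls. T and NK cell genes summed to at most 7.16 RPKM in any library and B and plasma cell genes to at most 5.35. The part of these cells in the results was not tested. Of 18 clock genes, 6 were called higher and 3 lower on HFD with control antibody, among them Clock (-0.69 ± 0.13) and Per2 (1.07 ± 0.24). With GCGR antibody 9 of the 18 were called higher and 4 lower on HFD. The labels give no hour of sampling. Wee1, named above, is known as a gene under clock control. The part of clock phase was not tested.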

How the data were processed

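Per the labels' protocols, strand-specific mRNA libraries were sequenced as short single reads. Bases were called with bcl2fastq 2.17 and reads were checked with FastQC, per the submitters' processing notes, which name genome build GRCm38. The labels and notes do not name the aligner, counter or annotation. Per-gene RPKM values are as the authors deposited them, and all 23 value columns matched a library. Summed RPKM per library ran from 594026 to 692295. Total reads are not given, but the steps between low values put the libraries' relative depths between 0.861 and 1.14.

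Genes at 0.5 RPKM or more in at least 5 libraries were tested with limma 3.58.1 in R 4.3.3 on log2(RPKM + 1), as 4 group means with a mean-variance trend, two-sided, with Benjamini-Hochberg adjustment over all 11939 genes and a threshold of 0.05. The added 1 shrinks the fold changes of low genes. The script was tested on simulated data. Genes called in any comparison, or without overlap between libraries, were described in full, and of the other lists the 2 genes with the smallest adjusted p were named, except 1 that is not reported here. Gadd45a, E2f8, Cdkn1a, Rrm2 and other uncalled genes were named after their values were seen. The members and the gene lists were chosen with earlier results of these data known. Alternatives were a pseudocount of 0.1, a minimum of 0.1 RPKM or none, no trend, median-ratio scaling over genes above 1 RPKM in every library, the compared groups only and each library left out. Libraries 19 and 20 left out together, and a pseudocount of 0.1 with no minimum, were added after seeing the data. Gene positions and promoters are from RefSeq on GRCm38.p6.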

Additional observations from a re-analysis of the deposited data

Results flagged for a closer look

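In groups of 5 or 6 libraries, a value was marked where its gap to the nearest other value, divided by the range of the group, passed the 95% limit of Dixon's test. This marked 16 of 136 combinations of gene and group, where chance marks about 5%; 10 were high values and 6 low.

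Library 20 of the HFD GCGR antibody group held 3 of them, with Cdkn1a at 43.2 RPKM (next 6.66), Rrm2 at 5.42 (next 2.02) and Ccnb1 at 0.362 (next 0.199). In the HFD controls, library 13 was low for Ccnd1 (3.82), Mcm5 (0.614) and Mcm6 (0.768), and library 17 was high for Gadd45a (11.8, next 4.77). Library 11 of the chow GCGR antibody group was high for Ccnb1 (0.342), Pcna (15.1) and Rrm2 (1.88), library 9 was high for E2f8 (8.81, next 4.05), and Aurkb was at 0 in library 7, where its nearest neighbour was 0.169. In the chow controls, library 4 was high for Mki67 (0.253) and E2f1 (1.67), library 5 was low for Aurkb (0.0922) and library 1 was low for Cdc20 (0.151).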

How the results depend on the processing

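No paired analysis was possible because the sample numbers are unique to a library and pair nothing across groups. Followed through the settings were 31 gene results, those called or with larger fold changes. Over 606 combinations of such a result and a setting, 517 kept direction and side of the threshold, 67 lost the call, 20 gained it and 2 reversed. The counted reversals were Cdkn1a in the diet effect under the GCGR antibody, at -0.027 without library 20 and -0.37 without libraries 19 and 20 (0.62 with all, and -0.027 to 0.89 when leaving out 1 library at a time). Smaller uncalled results were not counted, and some changed sign. In the diet effect under the GCGR antibody, Mcm2 went from 0.07 to -0.19 without libraries 19 and 20. Of the named diet calls with control antibody, those of Aurka and Ccnd1 were lost in 11 of 18 settings, Top2a in 10 and Mcm4 and Mcm6 in 9 each. Of those with GCGR antibody, the call of Mcm7 was lost in 7 of 20 settings, Pcna in 5 and Cdk2 in 4.

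Among the 28 genes, the antibody effect on chow gave 1 higher call with the compared groups only. On HFD the lower calls became 3 with median-ratio scaling, 0 with the compared groups only and 9 without libraries 19 and 20, where the difference between antibody effects gave 2 lower and the diet effect under the GCGR antibody 1 higher. The diet effect with control antibody gave 4 higher with no minimum and 5 with that and a pseudocount of 0.1. Over all genes, the antibody effect on chow gave 28 higher (47 in the reported fit) with the pseudocount of 0.1 and no minimum. On HFD, 636 higher and 253 lower became 288 and 135 with the compared groups only, and lower became 418 with median-ratio scaling and 472 without libraries 19 and 20. The difference between antibody effects, 15 higher and 9 lower, gave 9 higher at a minimum of 0.1, 4 higher and 4 lower with none, 7 higher with median-ratio scaling, 6 higher and 2 lower with pseudocount 0.1 and no minimum, and 73 higher and 59 lower without libraries 19 and 20. The cause was not tested.

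Leaving out 1 library at a time, calls among the 28 genes ran from 4 to 14 higher and 0 to 1 lower (diet, control antibody), 1 to 3 higher and 1 to 3 lower (diet, GCGR antibody), 0 to 1 higher and 1 to 2 lower (antibody, HFD) and stayed at 0 in both directions for the antibody on chow and the difference. Of these, library 9, 20, 21 or 22 left 1 higher and library 10 or 23 left 1 lower in the diet effect under the GCGR antibody, and library 13, 19, 20 or 22 gave 2 lower for the antibody on HFD. Over all genes the ranges were 1046 to 1672 higher and 1621 to 2316 lower, 1348 to 1721 and 1596 to 2282, 375 to 1151 and 169 to 453, 21 to 59 and 35 to 74 (antibody, chow), and 3 to 44 and 2 to 21 (difference). Low genes rest on few reads, so small differences in Bub1, Ccnb1, Aurkb, Plk1 and Foxm1 were not detectable at this depth.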
